A study of Mus musculus with 6 samples.

Results

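The axonemal dynein, CFAP and radial spoke genes of the mouse cochlea are described here. They were chosen by symbol alone: every protein-coding gene whose symbol starts with Dnah, Dnaaf, Cfap or Rsph, together with Dnai1, Dnai2, Dnali1, Foxj1, Rfx2 and Rfx3. This gave 70 genes out of 55769 features in each library, of which 21928 were protein-coding. The set holds 15 Dnah genes, 7 Dnaaf genes, 34 Cfap genes, 8 Rsph genes and the 6 genes added by name. Of the 70 genes, 45 reached 1 TPM on average over the 6 libraries, and 0 passed the test between genotypes.

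The libraries came from total RNA of cochleae, the hearing organ of the inner ear, of mice on postnatal day 3. There were 3 libraries labelled Plscr5-/- and 3 labelled wild type, with no further allele, treatment, strain or sex in the labels used. The labels do not say that the libraries of one genotype came from separate animals or how many cochleae each one pooled, and p-values then describe the spread among the libraries, part of which may be technical. Mice heterozygous for Pou4f3 are mentioned in the extraction text but in no library's genotype, which is the field the groups follow. Plscr5, a member of the phospholipid scramblase family, had 4.30, 3.69 and 5.01 TPM in knockout libraries, against 14.53, 12.42 and 9.27 TPM in wild-type libraries. Every knockout library was below every wild-type library, which fits the labels, although the difference missed the threshold over all features (log2 fold change -1.28, SE 0.18, limma adjusted p = 0.29).

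Motile cilia and sperm tails are built around an axoneme, a ring of doublet microtubules that carries outer and inner dynein arms and is joined by radial spokes to a central apparatus. Dynein arms are put together in the cytoplasm by assembly factors before they enter the cilium, and FOXJ1 and the RFX factors switch on many axonemal genes. In the cochlea, developing hair cells carry a kinocilium, an axonemal cilium at the edge of the hair bundle that regresses in mice after birth, and many other cochlear cells carry a primary cilium, which lacks dynein arms and a central apparatus.

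RFX proteins bind a sequence called the X-box, and the promoters of the genes were searched for it because it is the feature these genes are best known to share. RefSeq windows of 300 bases on GRCm38.p6, from 250 bases before to 50 bases after each transcript start, were available for 58 of the 70 genes, in 62 windows. Searched on both strands were the whole X-box, which is GTNNCC followed after 1 or 2 free bases by GGNNAC, its arm GTTGCC, and a forkhead motif, TGTTTAC. A match to the arm can lie within a whole X-box. The stretches printed here are the whole X-box matches that ended before the start, with up to 20 bases on either side and the match in capitals, read 5′ to 3′ on the strand given. They come from 7 genes that reached 1 TPM and 2 that did not.
Cfap298, chr16:90935004-90935057, minus strand: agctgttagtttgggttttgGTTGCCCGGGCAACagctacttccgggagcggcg
Dnaaf5, chr5:139150197-139150234, plus strand: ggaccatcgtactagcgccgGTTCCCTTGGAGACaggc
Cfap20dc, chr14:8666359-8666412, minus strand: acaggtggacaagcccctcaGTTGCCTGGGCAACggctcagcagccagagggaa
Cfap43, chr19:47837401-47837453, minus strand: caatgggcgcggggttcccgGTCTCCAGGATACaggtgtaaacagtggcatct
Cfap206, chr4:34730207-34730249, minus strand: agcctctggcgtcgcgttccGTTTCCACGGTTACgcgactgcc
Cfap126, chr1:171122943-171122996, plus strand: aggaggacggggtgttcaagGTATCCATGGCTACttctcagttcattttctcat
Cfap77, chr2:29055269-29055316, minus strand: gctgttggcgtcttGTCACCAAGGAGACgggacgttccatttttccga
Cfap58, chr19:47937633-47937685, plus strand: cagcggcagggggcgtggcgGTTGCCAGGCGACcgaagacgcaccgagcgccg
Dnaaf6, chr1:31222760-31222813, plus strand: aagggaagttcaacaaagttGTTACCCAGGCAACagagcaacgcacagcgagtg

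The whole X-box was present in 12 of 62 windows of the axonemal genes (19.4%), in 490 of 14293 windows of protein-coding genes at 1 TPM or more (3.43%) and in 948 of 32851 windows of the whole table (2.89%). Its arm was present in 25 of the 62 windows (40.3%), in 12.5% of the windows of expressed protein-coding genes and in 12.5% of all windows. Among other axonemal genes, listed by name and described further on, 16 of 95 windows held the whole X-box (16.8%) and 39 of 95 its arm (41.1%). The forkhead motif was found in 3 of 62 windows (4.84%) and in 4 of 95 windows of the other axonemal genes (4.21%). It was found in 2.44% of the windows of expressed protein-coding genes and in 3.65% of all windows. Among the axonemal genes, the whole X-box was found in 9 of 41 windows of genes at 1 TPM or more (22%) and in 3 of 21 windows of genes below it (14.3%). Dnaaf6 was listed at 0 in all 6 libraries although its window holds a match. Cfap298 had the highest level of the 9 genes printed, at a mean of 38.5 TPM. The Rfx2 and Rfx3 windows hold the arm as well, in Rfx2 at base -116 to -111 and in Rfx3 at base 31 to 36, counted from the start. A match is a description of letters and not evidence of binding, and a window without a match says only that these letters are not in it.

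**Figure D1:**
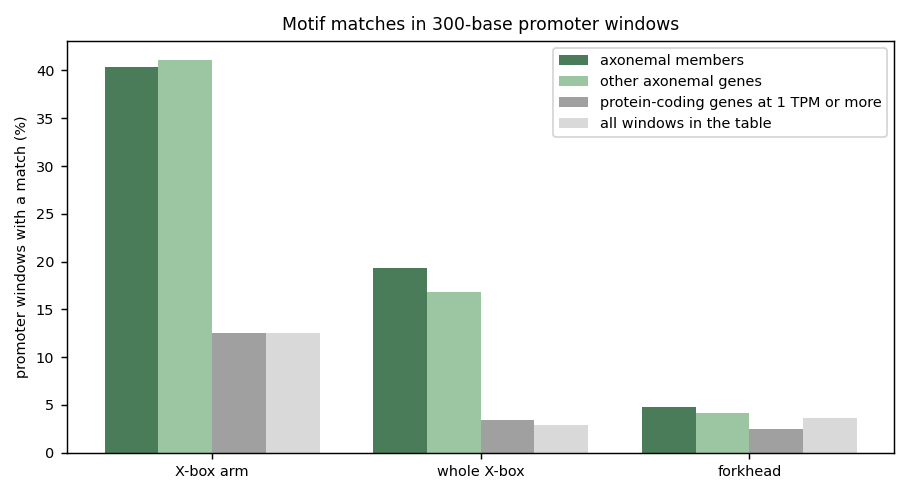
Share of promoter windows (%) with a match on either strand to the X-box arm, the whole X-box or the forkhead motif, with 1 bar each for the axonemal genes, the other axonemal genes, protein-coding genes at 1 TPM or more, and all windows. The 2 axonemal bars stand at 40.3% and 41.1% for the arm and at 19.4% and 16.8% for the whole X-box, against 12.5% and 2.89% of all windows.

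TPM is a transcript abundance per transcript length, scaled to a constant total. Levels can thus be compared between genes, while the read depth behind them is unknown and counting intervals cannot be had. With a mean of 1 TPM over 6 libraries as the level reached, the 45 genes were 64.3% of the 70, close to the 64.9% of all protein-coding genes. Their levels were lower than usual, with a median over the 70 genes of 2.29 TPM against 7.44 TPM over all protein-coding genes. Of the 70 genes, 11 averaged at least 10 TPM, 34 from 1 to under 10 TPM, 14 from 0.1 to under 1 TPM and 11 below 0.1 TPM. In each of the 6 libraries 37 genes were at 1 TPM or more, another 15 were so in 1 to 5 libraries and 18 in none. Dnaaf6 and Rsph6a were listed at 0 in every library. Just above the line stood Dnah9 at 1.05, Cfap45 at 1.06 and Dnah14 at 1.17 TPM, and just below it Cfap57 at 0.928, Cfap47 at 0.888 and Dnah7a at 0.853 TPM. Among the 37 genes at 1 TPM or more throughout, the highest library was at the median 1.46 times the lowest, and 1 gene, Dnah2, varied over 2-fold.

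**Figure D2:**
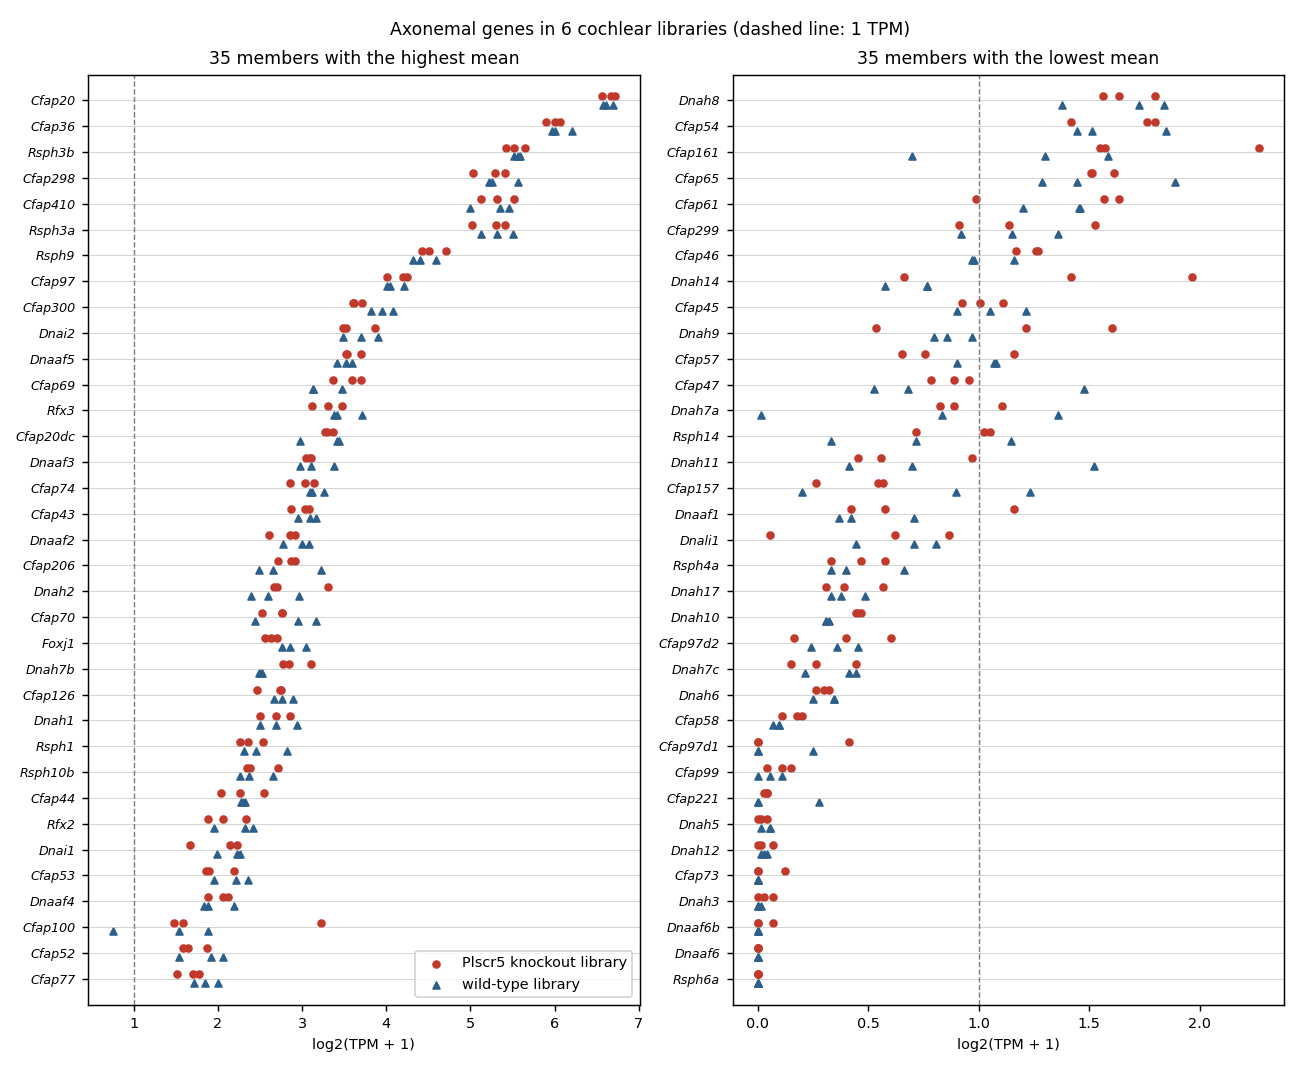
Level of each of the 70 axonemal genes in each library as log2(TPM + 1), ordered by mean, with knockout libraries as red circles drawn above wild-type libraries as blue triangles and a dashed line at 1 TPM. The left panel spans genes such as Cfap20 at a mean of 98.5 TPM, and the right panel ends with Dnaaf6 and Rsph6a at 0. Its scale is wider because its genes are lower.

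The share of genes reaching 1 TPM differed between parts of the axoneme. All 7 doublet microtubule proteins and all 3 transcription factors reached it, as did 6 of 8 central apparatus genes, 5 of 7 genes for tethers, spoke bases or regulators of inner arms, 6 of 9 assembly factors and 5 of 8 radial spoke genes. Dynein heavy chains, the motor subunits, reached it least often, with 3 of 9 for the inner arms and 2 of 5 for the outer arms. The roles were assigned from general knowledge, in part from Chlamydomonas and human axonemes, and this spread over roles was not tested. The summed mean level of the 70 genes was 552 TPM, and the 6 highest genes held 58.6% of it.

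**Figure D3:**
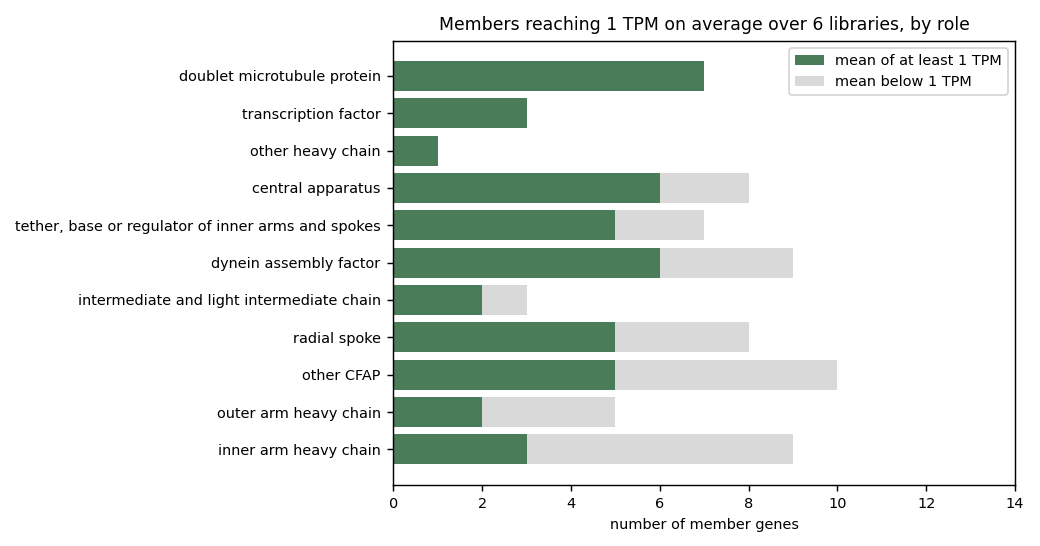
Number of axonemal genes of each role with a mean of at least 1 TPM over 6 libraries (green) and below it (grey). The green part fills the whole bar for the 7 doublet proteins, and 3 of 9 for inner arm heavy chains.

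Among the transcription factors, Rfx3 was the highest. Rfx3, needed for ciliogenesis in several mouse tissues, had 10.16, 8.91 and 7.69 TPM in knockout libraries, against 12.12, 9.44 and 9.70 TPM in wild-type libraries. Foxj1, the master regulator of motile cilia, had 5.53, 4.90 and 5.19 TPM in knockout libraries, against 6.26, 5.78 and 7.28 TPM in wild-type libraries. Rfx2, a close relative of Rfx3 known for its part in mouse spermiogenesis, had 4.05, 3.16 and 2.68 TPM in knockout libraries, against 2.89, 4.0 and 4.33 TPM in wild-type libraries. Knockout and wild-type libraries overlapped for Rfx3 and Rfx2, while every knockout library lay below every wild-type library for Foxj1. The 3 genes summed to 19.7, 17 and 15.6 TPM in knockout libraries, against 21.3, 19.2 and 21.3 TPM in wild-type libraries.

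The heavy chains of the outer dynein arm, which give the beat most of its force, were low. Dnah5, a principal outer arm chain of respiratory cilia, averaged 0.0133 ± 0.0153 TPM in knockout libraries and 0.0300 ± 0.0173 TPM in wild-type libraries (SD, n = 3 each). Dnah8, mostly known from the sperm tail, was the highest of the 5, at 2.18 ± 0.27 TPM in knockout libraries and 2.16 ± 0.50 TPM in wild-type libraries (SD, n = 3 each). Dnah8 was also the only one of the 5 at 1 TPM or more in all 6 libraries. Dnah9, the partner of Dnah5 in the outer part of respiratory cilia, had 1.32, 2.04 and 0.45 TPM in knockout libraries, against 0.74, 0.96 and 0.81 TPM in wild-type libraries. Dnah11, its counterpart nearer the base and a gene of left-right patterning in mice, had 0.37, 0.96 and 0.47 TPM in knockout libraries, against 0.62, 0.33 and 1.87 TPM in wild-type libraries. The wild-type values of Dnah9 lay within its knockout range, and the knockout values of Dnah11 lay within its wild-type range. Dnah17, another chain of the sperm tail, averaged 0.343 ± 0.123 TPM in knockout libraries and 0.320 ± 0.072 TPM in wild-type libraries (SD, n = 3 each).

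Inner arm heavy chains shape the bend of the axoneme, and 3 of them, Dnah2, Dnah7b and Dnah1, were at 1 TPM or more in all 6 libraries. Dnah2, part of the inner arm that carries a pair of heavy chains, had 5.50, 5.34 and 8.92 TPM in knockout libraries, against 6.79, 5.06 and 4.25 TPM in wild-type libraries. Dnah10, the other chain of that arm, had 0.36, 0.38 and 0.37 TPM in knockout libraries, against 0.24, 0.25 and 0.24 TPM in wild-type libraries. The Dnah10 groups did not overlap, but the gene was too low to be tested. Dnah1 had 4.68, 5.47 and 6.27 TPM in knockout libraries, against 4.65, 5.48 and 6.69 TPM in wild-type libraries, which overlap almost completely. The remaining chains were below 1 TPM on average. Dnah6 had a mean of 0.235 TPM over the 6 libraries, Dnah12 of 0.0200 TPM and Dnah3 of 0.0133 TPM. Dnah14, a heavy chain not placed in an arm here, had 2.90, 0.58 and 1.67 TPM in knockout libraries, against 0.70, 0.70 and 0.49 TPM in wild-type libraries. All 15 heavy chains summed to 25.1, 26.6 and 27.8 TPM in knockout libraries, against 20.8, 22.4 and 23.3 TPM in wild-type libraries. These sums did not overlap, and Dnah7b, Dnah2 and Dnah14 had the largest differences in mean. The sums were not tested, and the libraries of Dnah2 and Dnah14 overlapped between genotypes. Among the 4 heavy chains tested, the groups did not overlap in 1, Dnah7b, beside 9.33% of all features.

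Mouse has 3 near copies of the single human DNAH7 gene, and reads cannot always be assigned among them. Of the 50-base words in the longest Dnah7b transcript, 38.5% also occur in Dnah7c and 30.4% in Dnah7a. Dnah7b had 6.17, 7.62 and 5.84 TPM in knockout libraries, against 4.61, 4.71 and 4.76 TPM in wild-type libraries. Dnah7a had 1.15, 0.85 and 0.77 TPM in knockout libraries, against 0.01, 1.56 and 0.78 TPM in wild-type libraries. Dnah7c averaged 0.223 ± 0.127 TPM in knockout libraries and 0.283 ± 0.108 TPM in wild-type libraries (SD, n = 3 each). The sum over the 3 copies, which depends less on how reads were divided among them, was 7.43, 8.67 and 6.97 TPM in knockout libraries, against 4.95, 6.43 and 5.90 TPM in wild-type libraries. The knockout sums were all above the wild-type sums, by a smaller margin than for Dnah7b alone.

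The intermediate chains, which hold the outer arm to the doublet, were higher than the outer arm heavy chains. Dnai2 had 13.57, 10.47 and 10.24 TPM in knockout libraries, against 11.95, 10.21 and 13.96 TPM in wild-type libraries. Dnai1 had 2.18, 3.43 and 3.67 TPM in knockout libraries, against 3.70, 2.98 and 3.79 TPM in wild-type libraries. The genotypes overlapped for both. Dnali1, a light intermediate chain of inner arms, had 0.04, 0.54 and 0.82 TPM in knockout libraries, against 0.63, 0.36 and 0.75 TPM in wild-type libraries, and was below 1 TPM throughout.

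Among the assembly factors, Cfap298 was the highest. Cfap298, known from human and zebrafish for outer arm assembly, had 31.78, 37.99 and 41.63 TPM in knockout libraries, against 37.14, 36.36 and 46.19 TPM in wild-type libraries. Cfap300, which takes part in bringing dynein arms into human cilia, had 12.08, 11.16 and 11.29 TPM in knockout libraries, against 15.98, 13.08 and 14.49 TPM in wild-type libraries. The Cfap300 groups did not overlap, while those of Cfap298 did. Dnaaf5, a HEAT-repeat assembly factor, averaged 11.0 ± 0.8 TPM in knockout libraries and 10.4 ± 0.7 TPM in wild-type libraries (SD, n = 3 each). Dnaaf3 averaged 7.47 ± 0.18 TPM in knockout libraries and 7.97 ± 1.33 TPM in wild-type libraries (SD, n = 3 each). Dnaaf2, a PIH-domain factor, averaged 5.97 ± 0.78 TPM in knockout libraries and 6.77 ± 0.83 TPM in wild-type libraries (SD, n = 3 each). All 3 of these Dnaaf genes overlapped between genotypes. The other factor at 1 TPM or more was Dnaaf4, with a mean of 3.01 TPM over the 6 libraries. Dnaaf1, a leucine-rich repeat factor, was at a mean of 0.553 TPM. Dnaaf6b had a mean of 0.00833 TPM, and Dnaaf6, the PIH-domain factor whose promoter is printed above, was listed at 0.

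Radial spokes join the doublets to the central apparatus, and Rsph3a and Rsph3b, near copies of each other, were the highest of the 8 Rsph genes. Rsph3b, a stalk protein, had 49.15, 44.80 and 41.70 TPM in knockout libraries, against 46.25, 44.88 and 47.26 TPM in wild-type libraries. Its copy Rsph3a had 41.40, 38.58 and 31.49 TPM in knockout libraries, against 38.94, 33.79 and 44.31 TPM in wild-type libraries. The copies share 75.8% of the 50-base words of Rsph3b, so how much belongs to each is uncertain. Their sum was 90.6, 83.4 and 73.2 TPM in knockout libraries, against 85.2, 78.7 and 91.6 TPM in wild-type libraries, and overlapped. Rsph9, a spoke head protein, had 21.75, 25.18 and 20.51 TPM in knockout libraries, against 23.02, 18.94 and 20.08 TPM in wild-type libraries. The other head proteins were lower, with means over the 6 libraries of 4.53 TPM for Rsph1 and 0.382 TPM for Rsph4a, while Rsph6a, known from the sperm tail, was listed at 0. Rsph10b averaged 4.53 TPM and Rsph14 0.808 TPM, and neither separated the genotypes.

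Proteins bound to the doublet microtubules held the highest gene of the set. Cfap20, an inner junction protein of the doublet that primary cilia also contain, had 93.66, 100.42 and 103.79 TPM in knockout libraries, against 96.52, 93.86 and 102.67 TPM in wild-type libraries. This level was at or above that of 93.7% of protein-coding genes. Cfap126, also called Flattop and known in mouse hair cells for the placement of the basal body, averaged 5.29 ± 0.68 TPM in knockout libraries and 5.86 ± 0.53 TPM in wild-type libraries (SD, n = 3 each). The remaining 5, all proteins of the doublet interior, were low, with means over the 6 libraries of 3.26 TPM for Cfap53, 2.45 TPM for Cfap52, 2.41 TPM for Cfap77, 1.97 TPM for Cfap161 and 1.06 TPM for Cfap45. None of the 7 separated the genotypes.

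Central apparatus genes sat mostly between 1 and 10 TPM. Cfap69 had 9.31, 12.01 and 11.10 TPM in knockout libraries, against 7.72, 7.79 and 10.13 TPM in wild-type libraries. Cfap74 had 7.81, 6.23 and 7.22 TPM in knockout libraries, against 7.70, 8.61 and 7.57 TPM in wild-type libraries. Both overlapped between genotypes. Cfap46, which in Chlamydomonas belongs to the same projection as Cfap74, Cfap54 and Cfap221, had 1.41, 1.25 and 1.39 TPM in knockout libraries, against 0.97, 1.23 and 0.96 TPM in wild-type libraries. The Cfap46 groups did not overlap, with 1.25 TPM in the lowest knockout library and 1.23 TPM in the highest wild-type library. The other partners were at means over the 6 libraries of 2.12 TPM for Cfap54 and 0.0483 TPM for Cfap221. Cfap70 averaged 5.43 ± 0.59 TPM in knockout libraries and 6.39 ± 1.80 TPM in wild-type libraries (SD, n = 3 each).

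Genes for the tether of the inner arms, the spoke bases and inner arm regulators were in the same range. Cfap43, a tether protein, averaged 7.0 ± 0.6 TPM in knockout libraries and 7.44 ± 0.63 TPM in wild-type libraries (SD, n = 3 each). Cfap206, at the base of a radial spoke, averaged 6.14 ± 0.52 TPM in knockout libraries and 6.07 ± 1.97 TPM in wild-type libraries (SD, n = 3 each). Cfap44, the partner of Cfap43, had a mean of 3.92 TPM over the 6 libraries. Cfap100, an inner arm regulator known from Chlamydomonas, had 8.38, 2.0 and 1.80 TPM in knockout libraries, against 0.69, 1.90 and 2.70 TPM in wild-type libraries. Knockout library 1 alone was high for Cfap100, and the other 2 lay within the wild-type range. Cfap73, its partner, was listed at 0 in 5 of 6 libraries.

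Of the CFAP genes not placed in these structures, Cfap36 and Cfap410 were the highest. Cfap36, which binds the small GTPase ARL3, had 65.65, 63.13 and 58.66 TPM in knockout libraries, against 72.80, 61.56 and 63.21 TPM in wild-type libraries. Cfap410, a protein of the basal body and primary cilium, had 33.97, 38.73 and 44.77 TPM in knockout libraries, against 30.91, 39.66 and 42.96 TPM in wild-type libraries. Cfap97 averaged 16.8 ± 1.5 TPM in knockout libraries and 16.1 ± 1.3 TPM in wild-type libraries (SD, n = 3 each). Cfap20dc averaged 8.92 ± 0.34 TPM in knockout libraries and 8.78 ± 1.65 TPM in wild-type libraries (SD, n = 3 each). All 4 overlapped between genotypes. Cfap58, whose promoter is printed above, had 0.08, 0.13 and 0.15 TPM in knockout libraries, against 0.05, 0.07 and 0.07 TPM in wild-type libraries, which did not overlap but were too low to be tested.

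Between genotypes, no axonemal gene passed the test. The test covered genes that had 1 TPM or more in 3 libraries or more, on log2(TPM + 1), a scale that understates the change of low genes, and p-values were adjusted over all 17097 features kept. Of the 70 genes 45 were tested and 25 were too low, and 0 of the 45 had been kept through 1 genotype alone. These are not the same 45 genes that averaged at least 1 TPM. Dnah9 and Dnah14 averaged more than 1 TPM but were at that level in only 2 libraries each, all of them knockout, and were not tested. Cfap57 and Rsph14 were tested with means below 1 TPM. With limma, 0 of 45 had an adjusted p under 0.05, the smallest being 0.99, beside 2 of 17097 features (0.0117%). At an unadjusted p under 0.05 there was 1 gene higher in knockout, Dnah7b, beside 2.15% of all features, and 1 lower, Cfap300, beside 1.85% of all features. Together they are 4.44% of the 45. Groups that did not overlap were found in 4 of 45 genes (8.89%), beside 9.33% of all features. Knockout libraries were above for Dnah7b and Cfap46, beside 4.60% of all features, and below for Cfap300 and Foxj1, beside 4.74% of all features. Fold changes were positive in 21 genes and negative in 24, with a median of -0.03 beside -0.01 over all features, and ran from -0.31 to 0.71. Each of these shares was near that of all features, and nothing particular to the axonemal genes is read from them.

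On the log2(TPM + 1) scale, the 95% confidence interval of the difference lay between -1 and 1 for 43 of 45 genes, the exceptions being Cfap100 and Cfap161. The median SE was 0.17. Because of the added 1, these intervals do not bound the fold change in TPM of genes near 1 TPM, such as Cfap57, Rsph14, Cfap299 and Cfap61. Cfap20, where the added 1 has little effect, had the narrowest interval, from -0.14 to 0.19.

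**Figure D4:**
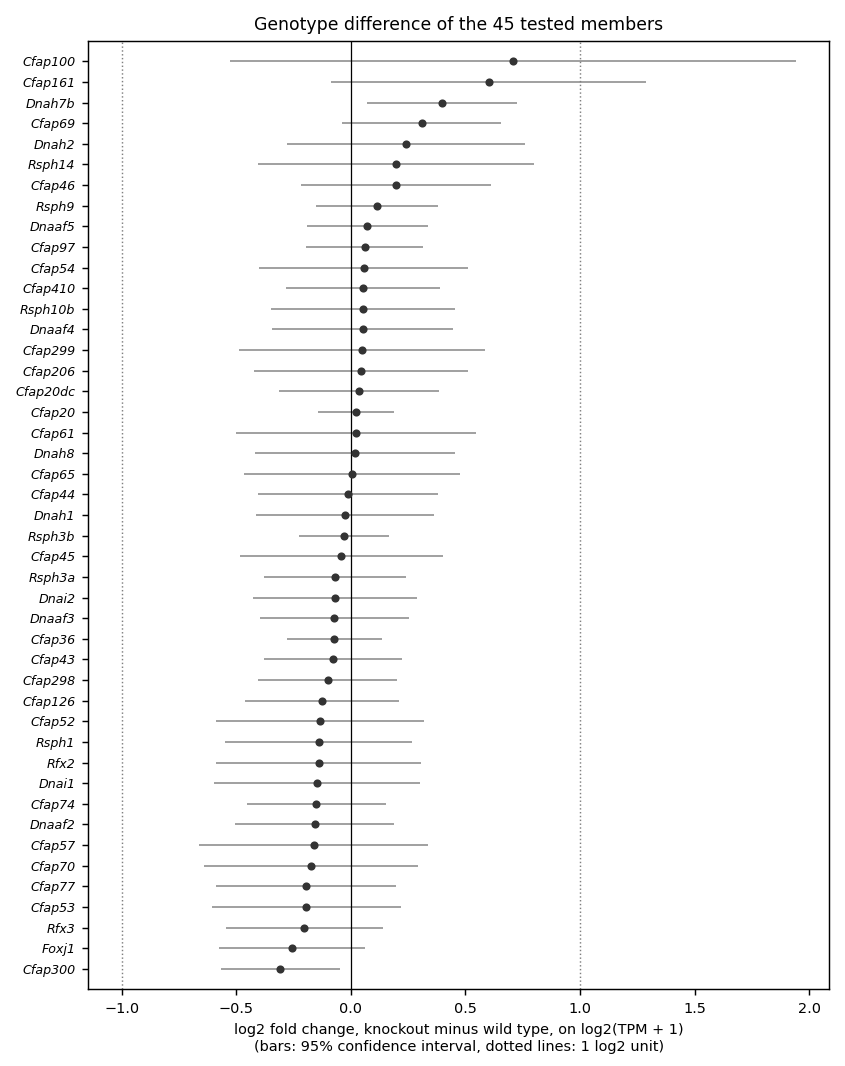
Fold change of each of the 45 tested axonemal genes on the log2(TPM + 1) scale, knockout minus wild type, with 95% confidence intervals from limma and dotted lines at -1 and 1. The points run from -0.31 for Cfap300 to 0.71 for Cfap100, and 43 of 45 intervals stay between the dotted lines.

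The 10 tested genes with the smallest p all had a limma adjusted p of 0.99, so the following values are a description. Dnah7b (ENSMUSG00000041144) had a log2 fold change of 0.40 (SE 0.14), with every knockout library above every wild-type library. Cfap300 (ENSMUSG00000053070) had a log2 fold change of -0.31 (SE 0.11), with every knockout library below. Foxj1 (ENSMUSG00000034227), whose knockout libraries were also all below, had a log2 fold change of -0.26 (SE 0.14). For a single gene the exact two-sided permutation test of 3 against 3 libraries cannot go below 0.1, and Dnah7b, Cfap300, Foxj1 and Cfap46 reached that value. Cfap46 had a log2 fold change of 0.20 (SE 0.18), Cfap69 of 0.31 (SE 0.15) and Cfap74 of -0.15 (SE 0.13). The value of Cfap74 was -0.07 without knockout library 2 and -0.10 without wild-type library 2. Rfx3 had a log2 fold change of -0.20 (SE 0.15), which was -0.10 without wild-type library 1 and -0.11 without knockout library 3. Rfx2 had -0.14 (SE 0.19), which ran from -0.04 without knockout library 3 to -0.28 without wild-type library 1. Cfap77 had 2.25, 2.43 and 1.85 TPM in knockout libraries, against 2.29, 2.60 and 3.02 TPM in wild-type libraries, a log2 fold change of -0.19 (SE 0.17), or -0.12 without knockout library 3 and -0.12 without wild-type library 3. Cfap161 had 1.92, 3.82 and 1.97 TPM in knockout libraries, against 1.46, 2.0 and 0.62 TPM in wild-type libraries, a log2 fold change of 0.60 (SE 0.30). For Cfap161, knockout library 2 stood above and wild-type library 3 below the rest, and the log2 fold change was 0.37 without the first of these and 0.35 without the other. Cfap100, at 0.71 (SE 0.52), rested on knockout library 1, and the log2 fold change was 0.14 without that library and 0.39 without wild-type library 1.

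**Figure D5:**
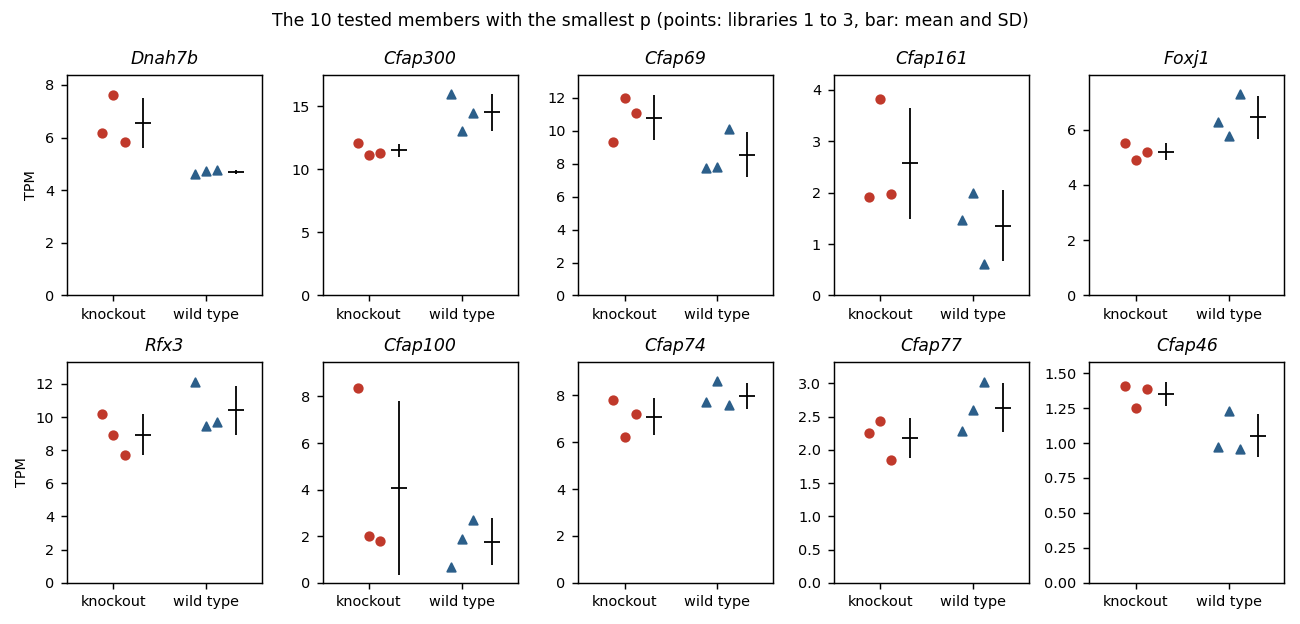
TPM in each library of the 10 tested axonemal genes with the smallest p, knockout libraries as red circles left of wild-type libraries as blue triangles, with the mean and SD over 3 libraries as a bar beside each group. The y axes start at 0 and differ between panels. For Dnah7b the knockout points lie between 5.84 and 7.62 TPM and the wild-type points between 4.61 and 4.76 TPM.

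The other genes of the axoneme, 97 found from lists of docking, regulatory, central apparatus, doublet, assembly and regulator genes, likewise held no gene past the threshold. Of these 97 genes 67 averaged at least 1 TPM and 66 were tested. With limma, 0 of 66 had an adjusted p under 0.05, and 3 had an unadjusted p under 0.05, of which 1 was higher in knockout, beside 2.15% of all features, and 2 were lower, beside 1.85% of all features. Fold changes were positive in 19 and negative in 47, with a median of -0.05 beside -0.01 over all features, of which 53.4% were negative. Groups did not overlap in 10 of 66 (15.2%), beside 9.33% of all features. Knockout was above in 1 of the 66, beside 4.60% of all features, and below in 9 of the 66, beside 4.74% of all features. The higher gene at an unadjusted p under 0.05 was Tuba1a, an alpha tubulin used throughout the cell, with a log2 fold change of 0.23 (SE 0.08). Efcab6, grouped here with the doublet proteins, had 1.99, 2.55 and 2.09 TPM in knockout libraries, against 2.99, 3.49 and 5.65 TPM in wild-type libraries, a log2 fold change of -0.62 (SE 0.22), or -0.40 without wild-type library 3. Mycbp, a MYC-binding protein also found in the central apparatus, had 14.16, 11.74 and 17.28 TPM in knockout libraries, against 27.03, 17.65 and 17.96 TPM in wild-type libraries, a log2 fold change of -0.50 (SE 0.19), or -0.30 without wild-type library 1. Spag6l, a central apparatus gene, had 4.40, 3.65 and 4.28 TPM in knockout libraries, against 6.14, 4.49 and 6.55 TPM in wild-type libraries, a log2 fold change of -0.39 (SE 0.17). Rfx5, an RFX factor known for its control of antigen presentation genes, had a log2 fold change of -0.18 (SE 0.09), or -0.11 without wild-type library 3. Every knockout library was below every wild-type library for Efcab6, Mycbp, Spag6l and Rfx5.

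The highest genes of these lists were the tubulins Tuba1a, with a mean of 1081 TPM over the 6 libraries, and Tubb4b, with 218 TPM. Ccdc39, part of the ruler that spaces dyneins along the doublet, averaged 28.6 ± 6.5 TPM in knockout libraries and 32.1 ± 1.6 TPM in wild-type libraries (SD, n = 3 each). Efcab1, or calaxin, at the outer arm docking site, averaged 11.4 ± 0.6 TPM in knockout libraries and 13.5 ± 1.8 TPM in wild-type libraries (SD, n = 3 each). Among dynein light chains, Dnal4 averaged 46.6 ± 0.3 TPM in knockout libraries and 46.9 ± 3.0 TPM in wild-type libraries (SD, n = 3 each), and Tctex1d2 had a mean of 21.4 TPM over the 6 libraries. Of the nexin-dynein regulatory complex, which links neighbouring doublets, Gas8 had a mean of 31.6 TPM and Drc3 of 8.65 TPM. Spef1, a microtubule-bundling protein of the central pair, averaged 18.1 ± 6.7 TPM in knockout libraries and 19.9 ± 2.9 TPM in wild-type libraries (SD, n = 3 each). In the doublet list Tex9 had a mean of 30.8 TPM and Tekt2, a tektin filament protein, of 21.8 TPM. Pih1d1 and Ruvbl1, co-chaperones that also serve complexes outside cilia, had means of 64.4 and 56.1 TPM. Against these, Hydin, a giant protein of the central apparatus, ran from 0.52 to 0.86 TPM in knockout libraries and from 0.66 to 0.82 TPM in wild-type libraries. For Ccdc39 and all genes named after it here, the libraries overlapped between genotypes.

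Markers of the cell types that could carry these transcripts were read beside them. All 17 hair cell markers were above 1 TPM in every library, and their summed level was 653, 595 and 616 TPM in knockout libraries, against 667, 649 and 737 TPM in wild-type libraries. Of those markers 14 had negative fold changes and 0 passed the test. The 10 supporting cell markers summed to 5283, 5418 and 5368 TPM in knockout libraries, against 6188, 5762 and 6660 TPM in wild-type libraries, and all 10 had negative fold changes. Of the 45 tested axonemal genes, 24 had negative fold changes, among them Foxj1, Rfx3 and Rfx2, and 21 had positive ones. None of these passed the test, and the part of cell make-up in those values was not tested. In RNA of a tissue of mixed cells, fewer cells of a type and less RNA per cell cannot be told apart. Nerve markers had the opposite sign. The 9 neuron markers summed to 773, 723 and 578 TPM in knockout libraries, against 480, 603 and 178 TPM in wild-type libraries, and all 9 had positive fold changes, with a median of 0.82. The 9 Schwann cell markers summed to 2175, 1451 and 1410 TPM in knockout libraries, against 1281, 1385 and 492 TPM in wild-type libraries, and 8 of 9 had positive fold changes. Over all features 53.4% of fold changes were negative. Sums did not overlap for the Schwann cell and supporting cell markers, but did for the neuron and hair cell markers. Wild-type library 3 had the lowest neuron and Schwann cell sums. All knockout libraries were below in 6 of 17 hair cell and 2 of 10 supporting cell markers, beside 4.74% of all features. They were all above in 4 of 9 neuron and 3 of 9 Schwann cell markers, beside 4.60% of all features. Of these nerve markers 0 passed the test, and their part in the axonemal values was not tested.

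Markers of multiciliated epithelium, which lines the middle ear, were mixed. The list of 17 shares 11 genes with the lists of other axonemal genes. Of these 17 markers 11 were below 1 TPM in every library, and the defining regulators Mcidas and Gmnc reached at most 0.03 and 0.07 TPM in knockout libraries and were listed at 0 in all 3 wild-type libraries. The summed level of the list was 139, 125 and 121 TPM in knockout libraries, against 134, 129 and 118 TPM in wild-type libraries, most of it Tppp3, a tubulin-binding protein with a mean of 93.5 TPM. The other markers of the list at 1 TPM or more in all 6 libraries were Dynlrb2, a dynein light chain, with a mean of 14.3 TPM, Tekt1, a tektin, with 12.3 TPM, and 1700016K19Rik with 3.88 TPM. The 10 markers of middle ear secretory cells summed to between 0.32 and 1.22 TPM in knockout libraries and between 0.70 and 1.86 TPM in wild-type libraries. The 8 sperm markers summed to between 0 and 1.28 TPM in knockout libraries and between 0.53 and 1.21 TPM in wild-type libraries. The 7 markers of choroid plexus, another ciliated tissue, were mixed. They summed to 153, 179 and 199 TPM in knockout libraries, against 186, 170 and 223 TPM in wild-type libraries, led by Ttr, Clic6 and Otx2. Kcnj13 was also at 1 TPM or more in all 6 libraries, Folr1 was so in 4, and Kl and Prr32 were below 1 TPM in every library. Clic6 and Otx2 are also known from the inner ear, and which cells gave the axonemal transcripts was not tested.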

How the data were processed

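Per the labels' protocols, total RNA of cochleae was made into Illumina libraries, and the authors deposited 1 table per library. The unit of these deposited values, TPM, was read from the values themselves, which sum to 1000000 in each library with 2 decimals. The submitters' processing notes name DESeq2 and the build mm8 with no role. Aligner, quantifier, strand setting and gene models were not given in the sources used here. TPM keeps no read depth, so depth is unknown. Symbols came from GENCODE M21 (GRCm38) by gene ID. Of the 70 genes 62 matched by that symbol, 6 by the RefSeq symbol and 2, Dnai1 and Dnai2, by a RefSeq synonym. Exons of 32 of the 70 overlap another gene, 30 of them on the opposite strand and 6 on the same strand, some on both. Those 6 are Dnaaf2, Dnaaf3, Dnaaf4, Cfap43, Cfap299 and Rsph10b. Reads of overlapping genes may not be told apart, and near copies (Dnah7a, Dnah7b and Dnah7c, Rsph3a and Rsph3b) may split reads.

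All features that had 1 TPM or more in 3 libraries or more were fitted together on log2(TPM + 1). The fit used R 4.3.3 and limma 3.58.1, whose variance moderation was robust and followed an intensity trend, and Benjamini-Hochberg adjustment ran over all 17097 features at a threshold of 0.05. The fit was tested on simulated data. Named are the factors and chains chosen by symbol, the 20 highest genes, the 10 with the smallest p, 3 on either side of 1 TPM, all heavy chains, of the other axonemal genes the 2 highest of each list and the 5 with the smallest p, and Plscr5. Further genes (the remaining members of a role, Hydin and the multiciliated markers Mcidas, Gmnc, Tppp3, Tekt1, Dynlrb2 and 1700016K19Rik) were added to that rule with their values in view. The members, lists and tests were chosen with earlier results of these data known, so nothing here is independent of those results. Alternatives were other filters, scalings, a pseudocount of 0.1, removal of mitochondrial and haemoglobin genes, no variance trend, a replicate block and each library left out. Promoters are from RefSeq on GRCm38.p6. Amino acid sequences were not used here.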

Additional observations from a re-analysis of the deposited data

How the results depend on the processing

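The count of axonemal genes past the threshold was 0, and so was that of the other axonemal genes, under the main setting and all 15 alternatives, and the lowest adjusted p of any member over the 16 settings was 0.66 (limma, with the replicate block). Over all features the count of 2 became 0 without the filter, 0 without the variance trend, 0 with the replicate block, 1 with median ratio scaling, 1 with mitochondrial and haemoglobin genes removed, and 0 to 3 when leaving out each library in turn. The median log2 fold change of the axonemal genes, -0.025, became -0.069 with a filter at a mean of 5 TPM, which kept 25 of them. It became 0.002 without the filter, with 68 of them fitted. Leaving out each library, this median ran from -0.062 to 0.015, turning positive without knockout library 1 (0.015) and without wild-type library 3 (0.012). That of the other axonemal genes ran from -0.08 to -0.04. The members with an unadjusted p under 0.05 numbered 2, and 0 without knockout library 2, 0 without wild-type library 1, 1 without knockout library 3 and 0 to 3 over all libraries left out. Over all features this count of 684 ran from 354 to 1046. Of 277 checks of 19 named genes 275 kept their sign and call, and the exceptions were Dnai1, at 0.024 without knockout library 1 (range -0.25 to 0.024), and Dnai2, at 0.034 without wild-type library 3 (range -0.19 to 0.034). Most of the 19 were picked for the smallest p in these same libraries, which favours a stable sign, and none passed the threshold under the main setting. The 275 is thus no measure of how robust the differences are. With symbols of GENCODE alone, 40 genes reached 1 TPM, and leaving out a library gave 44 to 46. Same-numbered libraries deviated together for pairs 1 and 3 (r = 0.19 and 0.24 across genes) but not for pair 2 (r = -0.05), so the numbers were not taken to pair samples. With the replicate block 1250 features and 3 members had an unadjusted p under 0.05. Not every library correlated best with its own number. TPM gives no depth, so whether genes listed at 0 were absent cannot be told.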
